A study of Rattus norvegicus with 12 samples.

Results

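Fatty acid oxidation genes and targets of the nuclear receptor PPARa were examined as a group of 8 genes in the liver of obese Zucker rats. The members are Cpt1a, Cpt2, Acadm, Acadl, Ehhadh, Pdk4, Vnn1 and Ppargc1a, taken by symbol from the array's transcript clusters that the platform annotation pairs with exactly 1 gene. All 8 were found, out of 18166 genes with a symbol of their own. The rule for a gene with several clusters, the brightest one over the 12 arrays, chose nothing here, because each of the 8 has 1 cluster. The members were chosen by their roles and by their measured diet differences in these same arrays: those of Cpt1a, Vnn1 and Ppargc1a were already known, so the differences below are a description and no independent evidence.

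The arrays compare 6 rats fed a diet with 5% PSC and 6 rats fed a control diet of like energy and nutrient content with no PSC. PSC is the labels' name for a supplement that was produced biotechnologically on a side stream of agriculture, and the series title speaks of an oyster mushroom. All rats were male obese Zucker rats of the line Crl:ZUC-Leprfa, homozygous for the fa allele (fa/fa), which lack a working leptin receptor, so every liver is that of an obese animal and no lean rat is among the arrays analysed here. They were 5 to 6 weeks old at the start, ate freely, shared cages in pairs and were killed on day 29. Each array (Affymetrix Rat Gene 2.0 ST) measured liver RNA of 1 rat, and the 6 rats per diet were drawn at random from groups of 12. A sample here is a piece of about 20 mg of whole liver. The labels do not say which of the profiled rats were cage mates.

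Long-chain fatty acids enter mitochondria as carnitine esters, made by carnitine palmitoyltransferases, and are then shortened step by step by beta-oxidation. Peroxisomes run a separate chain-shortening pathway with enzymes of their own. PPARa, partnered by the retinoid X receptor, is activated by fatty acids in the fasting liver and induces genes of both pathways, and the coactivator PGC-1a, the product of Ppargc1a, strengthens its action.

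The windows around the start sites of 4 members are shown because they carry the contrasts described below: Cpt1a and Ppargc1a were called different between the diets, and Ehhadh and Acadm stand for the peroxisomal and the mitochondrial pathway. Each runs from 250 bases before to 50 bases after the gene start in RefSeq, build GRCr8, read 5′ to 3′ on the gene's own strand. Capitals mark TGACGTCA, the palindromic cAMP response element. The windows lie at chr1:209995910-209996209 (plus strand, Cpt1a), chr11:92746159-92746458 (plus strand, Ehhadh), chr2:245542815-245543114 (minus strand, Acadm) and chr14:63634058-63634357 (plus strand, Ppargc1a).
Cpt1a: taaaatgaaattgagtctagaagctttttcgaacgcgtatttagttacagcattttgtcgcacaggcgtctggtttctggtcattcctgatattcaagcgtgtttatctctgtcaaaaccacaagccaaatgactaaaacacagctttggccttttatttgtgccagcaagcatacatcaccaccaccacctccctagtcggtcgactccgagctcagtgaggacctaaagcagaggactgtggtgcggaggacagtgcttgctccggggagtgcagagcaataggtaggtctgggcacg
Ehhadh: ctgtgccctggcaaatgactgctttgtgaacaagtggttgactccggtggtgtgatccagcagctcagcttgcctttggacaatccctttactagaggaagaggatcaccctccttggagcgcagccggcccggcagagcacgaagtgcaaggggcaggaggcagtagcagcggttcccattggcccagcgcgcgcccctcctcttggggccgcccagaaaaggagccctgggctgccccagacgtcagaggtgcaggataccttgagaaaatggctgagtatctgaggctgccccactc
Acadm: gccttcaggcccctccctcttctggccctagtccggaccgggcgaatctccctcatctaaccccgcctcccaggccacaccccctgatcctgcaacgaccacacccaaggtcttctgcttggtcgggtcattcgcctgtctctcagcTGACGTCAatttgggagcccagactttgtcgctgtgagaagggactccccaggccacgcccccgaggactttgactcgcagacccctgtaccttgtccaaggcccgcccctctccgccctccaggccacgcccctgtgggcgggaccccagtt
Ppargc1a: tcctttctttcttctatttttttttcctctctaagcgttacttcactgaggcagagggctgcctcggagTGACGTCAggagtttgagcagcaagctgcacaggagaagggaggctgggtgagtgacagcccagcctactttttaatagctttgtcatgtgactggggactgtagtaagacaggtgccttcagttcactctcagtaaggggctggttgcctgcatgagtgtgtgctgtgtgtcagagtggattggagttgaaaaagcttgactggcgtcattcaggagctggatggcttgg

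Promoter windows were found for 6 of the 8 members, all but Acadl and Vnn1, and 3 motifs were searched in them. The cAMP response element TGACGTCA, its own reverse complement, stood in the windows of Ppargc1a and Acadm, beginning at positions -181 and -103 from the gene start, and in 1.83% of all 33469 rat windows of this length. The nuclear receptor half-site AGGTCA, searched on both strands, stood in none of the 6 and in 16.2% of all windows. The exact direct repeat of that half-site with 1 base of any kind between the copies (DR1), the consensus of the form PPARa binds, was searched on both strands. It stood in none of the 6 and in 0.0538% of all windows. These matches describe the exact letters of short windows. Sites outside the windows, and sites inside them that depart from these letters, were not searched.

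Signals are given as deposited, as log2 values, so that a difference of 1 is a doubling. The arrays were alike, with medians between 4.71 and 4.85 and correlations across genes of 0.987 to 0.995, and the number of arrays limits the precision. The medians leaned by diet, at 4.71 to 4.78 in control arrays and 4.72 to 4.85 in PSC arrays. Hepatocyte markers were bright, with Alb at 13.16 ± 0.04 in PSC-fed rats and 13.16 ± 0.01 in controls (SD, n = 6 each), and 0 of 6 measured hepatocyte markers were called. Of 7 Kupffer cell and macrophage markers 1 was called higher (Cd163), and their mean signal ranged over 7.18 to 7.59 in PSC arrays and 6.20 to 7.24 in control arrays. All 7 had positive differences, with a median of 0.57, and 4 had an unadjusted limma p under 0.05. Over all genes 2.6% were called and 19.1% had such a p. Of 7 stellate cell markers 2 were called lower, with mean signals of 6.76 to 7.17 in PSC arrays and 7.08 to 7.36 in control arrays. All 7 had negative differences, with a median of -0.275, and 5 had an unadjusted limma p under 0.05. Of 5 lymphocyte markers 1 was called higher, Nkg7 of cytotoxic cells (difference 0.51, adjusted p = 0.0266 by limma). Gzmb, also of cytotoxic cells, had -0.06 and was not called. Of the 5 differences 3 were positive and 2 negative, with a median of 0.01. Their mean signals were 3.79 to 4.01 in PSC arrays and 3.67 to 3.87 in control arrays. The part of these cell types in the values below was not tested, and in whole liver fewer cells of a type and less RNA per cell cannot be told apart. Markers of endothelial cells, cholangiocytes, adipocytes, muscle, kidney tubule and pancreas had 0 called genes in each list.

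Among the 8 genes, 1 was higher and 2 were lower in PSC-fed rats, and 5 were not called. Cpt1a was higher, Vnn1 and Ppargc1a were lower, and the downstream enzymes of mitochondrial beta-oxidation, Cpt2, Acadm and Acadl, differed by 0.05 or less in the deposited log2 values. With each array centred on its median their differences were -0.07, -0.09 and -0.003, and none was called. A gene was called when its adjusted p from limma's moderated test, with Benjamini-Hochberg adjustment over all 18166 genes, fell under 0.05. That rule called 2.6% of all genes, 0.716% higher and 1.89% lower in PSC-fed rats. Of the genes called 27.5% were higher, or 12.3% when each array was centred on its median. With the group chosen as described, nothing is read from its share against these percentages. The median difference of the 8 genes was -0.04 on the log2 scale, against 0.01 for all genes. When genes were split evenly into 6 classes by mean signal, the brightest class had a median of -0.03. It held every member but Ppargc1a.

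Cpt1a encodes the liver form of the outer-membrane carnitine palmitoyltransferase, which sets how fast long-chain fatty acids enter mitochondria. Its log2 signal had a lowest value of 9.86, a median of 10.235 and a highest value of 10.44 in PSC-fed rats, against 8.41, 9.57 and 9.76 in controls. The diets did not overlap, since even the lowest PSC array, replicate 4, lay above the highest control array, replicate 5. Values without overlap were seen for 2 of the 8 members, 1 in each direction, and for 2.19% of all genes (0.71% higher and 1.48% lower in PSC-fed rats). The fitted difference was 0.81 (95% interval 0.41 to 1.21, SE 0.19), which is 1.76-fold, with an adjusted p of 0.0374 (limma).

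The spread of Cpt1a was wide in controls, where control replicate 6, at 8.41, lay well under the next control at 9.26. Without that array the difference was 0.62 and remained called (limma adjusted p = 0.022). The call was lost when any 1 of 8 other arrays was left out. The adjusted p was 0.0847, 0.0619 and 0.0554 without control replicates 1, 3 and 4. It was 0.0605, 0.0614, 0.0586, 0.0777 and 0.0832 without PSC replicates 1, 2, 3, 5 and 6. The difference itself stayed between 0.62 and 0.89 over the 12 fits that left out 1 array. PSC replicates 2 and 5 had the highest array medians, and without both the difference was 0.76 with an adjusted p of 0.13. With all transcript clusters tested, those without a symbol included, the adjusted p of Cpt1a was 0.0647, and with array weights it was 0.053. Cpt1a was called in 10 of the 22 alternatives tried.

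**Figure D1:**
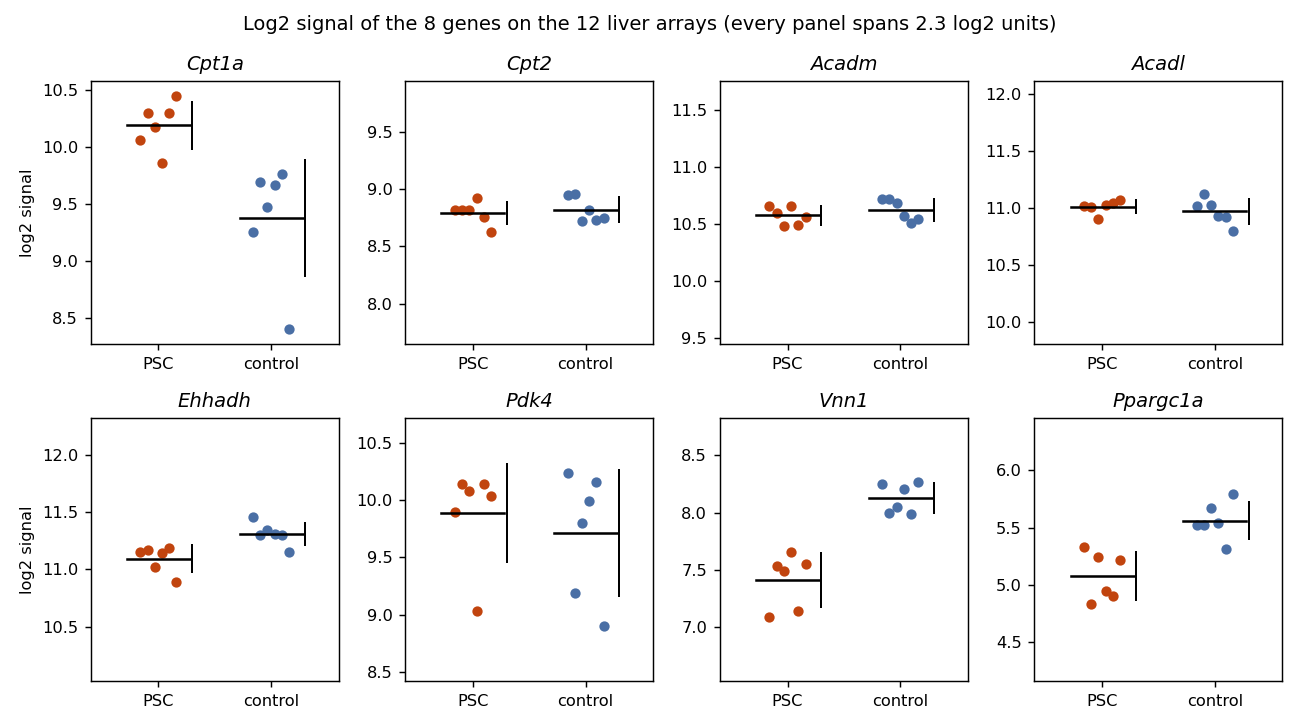
Log2 signal of each of the 8 genes (vertical axis, every panel spanning the same number of log2 units) in PSC-fed rats (left, orange) and control rats (right, blue), with 1 point per array, the mean as a horizontal line and the SD as a vertical line (n = 6 per diet). The diets are apart for Cpt1a and Vnn1, nearly apart for Ppargc1a, shifted with overlap for Ehhadh, and mixed for Cpt2, Acadm, Acadl and Pdk4.

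The 3 other mitochondrial members showed no called difference and narrow intervals. Cpt2, the inner-membrane enzyme that turns the carnitine ester back into acyl-CoA, had 8.63, 8.82 and 8.92 in PSC-fed rats and 8.72, 8.785 and 8.96 in controls (lowest, median and highest log2 signal). The diets overlapped almost wholly, with 5 of 6 PSC arrays inside the control range, and the difference was -0.03 (95% interval -0.17 to 0.11, adjusted p = 0.853 by limma).

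Acadm encodes the medium-chain acyl-CoA dehydrogenase, which opens each round of oxidation for fatty acids of middle length. It had 10.48, 10.58 and 10.66 in PSC-fed rats, against 10.51, 10.625 and 10.72 in controls. Of the PSC arrays 4 of 6 lay within the control range and the other 2 just under it, with a difference of -0.05 (95% interval -0.18 to 0.08, adjusted p = 0.697 by limma).

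Acadl encodes the long-chain acyl-CoA dehydrogenase. Its log2 signal was 10.9, 11.025 and 11.07 in PSC-fed rats and 10.8, 10.975 and 11.12 in controls, so that all 6 PSC arrays fell inside the control range. The difference was 0.04 (95% interval -0.09 to 0.17, adjusted p = 0.744 by limma). For these 3 genes together the intervals reach from -0.18 to 0.17, which leaves out a change of the size fitted for Cpt1a.

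Ehhadh, the bifunctional enzyme that carries out the hydration and dehydrogenation steps of peroxisomal beta-oxidation and a classical PPARa target in rodent liver, was slightly lower and not called. Its log2 signal was 10.89, 11.145 and 11.19 in PSC-fed rats, against 11.15, 11.305 and 11.46 in controls. All 6 PSC arrays lay below the control median, 3 of them below every control, and the lowest control, replicate 6, set the overlap. The difference was -0.22 (95% interval -0.36 to -0.07), a 1.16-fold lower signal, with an unadjusted p of 0.00598 and an adjusted p of 0.0981 (limma). Centring each array on its median moved it to -0.26 with an adjusted p of 0.047, so its side of the threshold depended on the scaling.

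The mitochondrial members were set against Ehhadh within each array, which asks whether their diet differences differed from that of the peroxisomal gene. In all 4 pairs the mitochondrial gene was higher relative to Ehhadh in PSC-fed rats. Cpt1a minus Ehhadh averaged -0.91 ± 0.28 in PSC arrays and -1.93 ± 0.46 in control arrays (SD, n = 6 each), a difference of 1.03 (95% interval 0.54 to 1.52) without overlap. For Acadl minus Ehhadh the difference was 0.26 (95% interval 0.12 to 0.40), also without overlap. For these 2 pairs the exact two-sided permutation p over 924 assignments of the arrays was 0.00216, the smallest these arrays can give, or 0.00433 after Benjamini-Hochberg adjustment over the 4 pairs.

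Cpt2 and Acadm gave smaller differences relative to Ehhadh, of 0.19 (95% interval 0.07 to 0.31, exact permutation p = 0.013, adjusted p = 0.0173) and 0.17 (95% interval 0.03 to 0.30, exact permutation p = 0.0216, adjusted p = 0.0216). All 6 PSC arrays lay above the control median for Cpt2 and 5 of 6 for Acadm. These pairs share Ehhadh and its error, and such a difference was common: 52.1% of all other genes passed an unadjusted p of 0.05 against Ehhadh in this test, 51.2% with the gene higher relative to Ehhadh in PSC-fed rats. The contrast with Ehhadh is therefore not particular to the mitochondrial genes, and since it uses the diet differences already known, its p-values are descriptive.

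**Figure D2:**
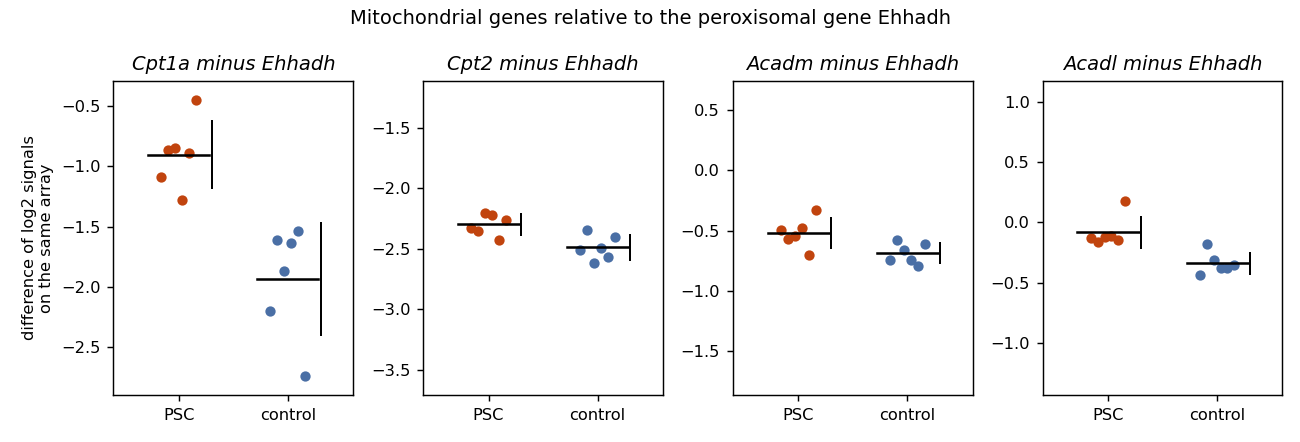
Difference between the log2 signal of each mitochondrial gene and that of Ehhadh on the same array (vertical axis) in PSC-fed rats (left, orange) and controls (right, blue), with 1 point per array, the mean as a horizontal line and the SD as a vertical line (n = 6 per diet). The height of a panel depends on the probes and has no meaning between genes, and the shift between diets is 1.03 for Cpt1a and 0.17 to 0.26 for the other three.

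Pdk4 encodes a mitochondrial kinase that switches off pyruvate dehydrogenase when fatty acids are burned. Its log2 signal was 9.03, 10.06 and 10.14 in PSC-fed rats and 8.9, 9.895 and 10.24 in controls. All 6 PSC arrays fell inside the control range, and the arrays of a diet spread over 1.11 (PSC) and 1.34 (control) log2 units. The difference was 0.175 (95% interval -0.33 to 0.68, adjusted p = 0.721 by limma).

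Pdk4 and Cpt1a had their extreme low values on the same arrays. PSC replicate 4 was the lowest PSC array for both, at 9.03 for Pdk4 and 9.86 for Cpt1a, and control replicate 6 was the lowest control for both, at 8.9 and 8.41. Control replicate 2 went another way, with the next lowest Pdk4 of the controls, 9.19, beside a Cpt1a of 9.69.

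Vnn1 encodes vanin-1, a pantetheinase anchored at the cell surface that breaks down pantetheine to pantothenate (vitamin B5) and cysteamine, and in mouse liver it responds strongly to PPARa activators. Its log2 signal was 7.09, 7.51 and 7.66 in PSC-fed rats, against 7.99, 8.13 and 8.27 in controls. The diets were separated by a gap between the highest PSC array, replicate 4, and the lowest control, replicate 5. The difference was -0.72 (95% interval -0.93 to -0.50, SE 0.10), a 1.65-fold lower signal, with an adjusted p of 0.0041 (limma). It had the 14th smallest p of all genes tested, and it stayed called in each of the 22 alternatives tried, with differences between -0.77 and -0.65.

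Ppargc1a was the dimmest member, with 4.83, 5.085 and 5.33 in PSC-fed rats and 5.31, 5.53 and 5.79 in controls. Of the PSC arrays 5 of 6 lay below every control, and PSC replicate 1, at 5.33, passed only control replicate 5. The difference was -0.48 (95% interval -0.69 to -0.27, SE 0.10), 1.39-fold lower, with an adjusted p of 0.0247 (limma). Genes of like brightness (class 3 of 6 when genes were split evenly on their mean signal) had a median difference of 0.05, the other way.

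The call for Ppargc1a was lost without control replicates 1, 3, 4 or 6 (limma p after adjustment 0.056, 0.0517, 0.0519 and 0.0535), and also without PSC replicate 5 (0.0573). Its difference stayed between -0.53 and -0.43 over the 12 fits that left out 1 array. Without PSC replicates 2 and 5 together it was -0.37 (adjusted p = 0.0851). Ppargc1a was called in 16 of the 22 alternatives tried. With 1 array left out, the number of the 8 genes called ranged from 1 to 3, and it was 1 without control replicate 1, 3 or 4 or PSC replicate 5, where Vnn1 alone passed.

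**Figure D3:**
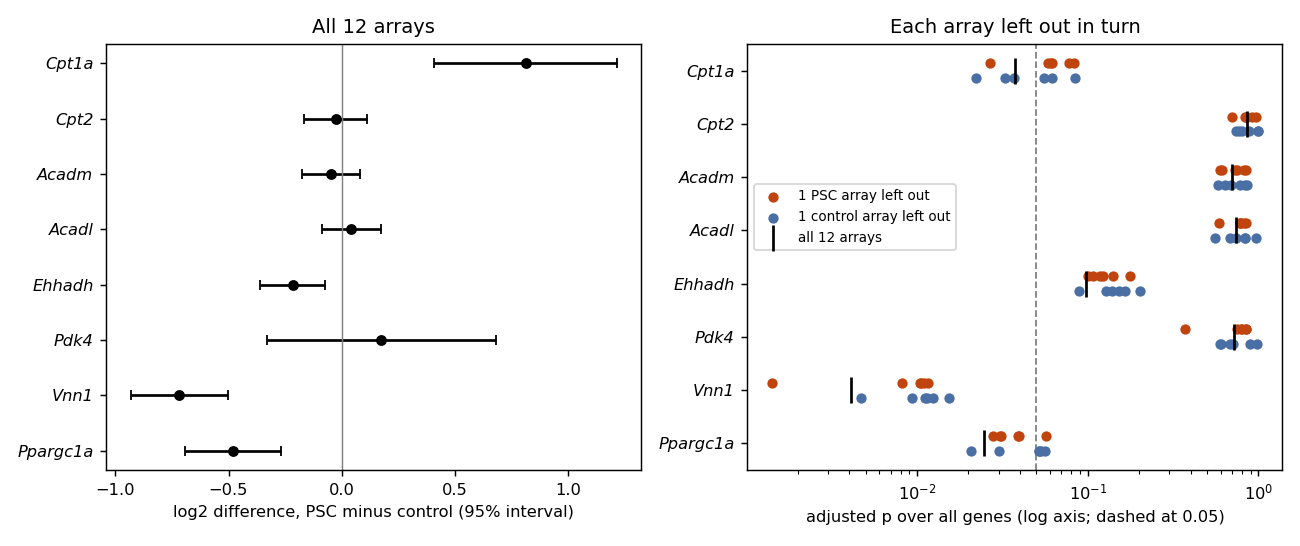
Left, log2 difference PSC minus control for each gene with its 95% interval (limma, 12 arrays). Right, adjusted p over all genes (log axis, dashed line at the threshold of 0.05) with all arrays (black bar) and with 1 PSC array (orange) or 1 control array (blue) left out; every point of Vnn1 lies left of the line, those of Cpt1a and Ppargc1a lie on both sides, and those of the other genes lie to the right.

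Most of the wider mitochondrial pathway differed little between the diets, though by more than Cpt2, Acadm and Acadl did. Of 19 measured genes of mitochondrial beta-oxidation 1, Cpt1a, was higher, 0 were lower and 18 were not called. Over all genes 2.6% were called. The median difference was -0.03, against 0.01 for all genes and -0.03 for the brightest of the 6 classes. All 4 mitochondrial members lay in that class, and 18 of the 19 genes had a mean signal above 7. The median size of the difference, whatever its sign, was 0.09, the same as over all genes. An unadjusted limma p under 0.05 was found for 4 of the 19, and for 19.1% of all genes. Cpt1a was also the only gene of this list that differed by more than 0.25. After Cpt1a the smallest p belonged to Eci1, an isomerase for unsaturated fatty acids, with 8.45 ± 0.09 in PSC-fed rats and 8.65 ± 0.10 in controls (mean ± SD, n = 6 each, adjusted p = 0.0972 by limma). Slc25a20, the carrier that brings the carnitine ester through the inner membrane, had a difference of -0.15 (adjusted p = 0.225 by limma). Cpt1b, the muscle form of the first step, had 5.32 ± 0.06 in PSC-fed rats and 5.36 ± 0.07 in controls (SD, n = 6 each).

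In the peroxisomal list 2 of 20 measured genes were higher, 0 were lower and 18 were not called, with a median difference of -0.04. Over all genes 0.716% were called higher and 1.89% lower. An unadjusted limma p under 0.05 was found for 4 of the 20, and for 19.1% of all genes. Both genes called higher work on bile acid precursors. Acox2, an acyl-CoA oxidase, was 9.63 ± 0.15 in PSC-fed rats and 9.25 ± 0.20 in controls (SD, n = 6 each, difference 0.37, adjusted p = 0.0479 by limma). Amacr, the racemase that readies such precursors, was 9.22 ± 0.18 in PSC-fed rats and 8.72 ± 0.18 in controls, without overlap (SD, n = 6 each, difference 0.50, adjusted p = 0.0183 by limma). Abcd3, a peroxisomal membrane transporter for acyl-CoA, had -0.16 (adjusted p = 0.132 by limma).

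These 2 calls rested on few arrays to different degrees. Acox2 lost its call without any 1 of 10 arrays, all but control replicate 2 and PSC replicate 4, with adjusted p from 0.0592 to 0.113, and also after median centring (0.0867) and with all transcript clusters tested (0.0795). Amacr lost it without control replicate 1 (adjusted p = 0.05002, just above the threshold). The median differences of the mitochondrial and peroxisomal lists, -0.03 and -0.04, and their largest falls, -0.20 for Eci1 and -0.22 for Ehhadh, lay close to each other.

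**Figure D4:**
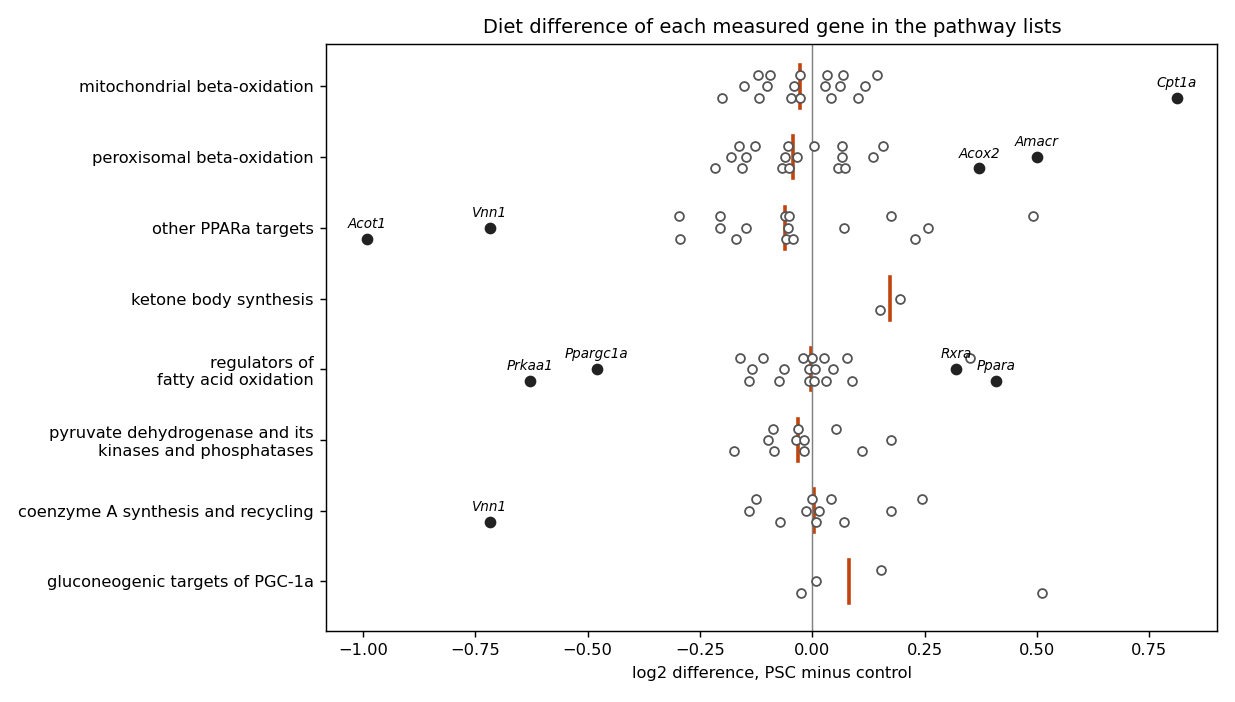
Log2 difference PSC minus control (horizontal axis) of every measured gene in 8 pathway lists, with 1 circle per gene, filled and named where called (adjusted p under 0.05 over all genes), and the list median as an orange bar. Most genes of both oxidation lists lie within 0.25 of 0, Cpt1a stands alone in the mitochondrial list, and called regulators lie on both sides of 0. Vnn1 belongs to 2 lists.

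Among other PPARa targets both called genes were lower in PSC-fed rats. Of 18 measured, 2 were lower, 0 were higher and 16 were not called, with a median difference of -0.06. Over all genes 0.716% were called higher and 1.89% lower. An unadjusted limma p under 0.05 was found for 7 of the 18, with differences of both signs, and for 19.1% of all genes. Called or not, 13 differences were negative and 5 positive. Over all genes 53.9% were positive, and the brightest class had a median of -0.03. A mean signal above 7 was seen for 15 of the 18. Besides Vnn1, the gene lower was Acot1, a cytosolic acyl-CoA thioesterase, with log2 signals of 2.74, 3.37 and 3.71 in PSC-fed rats and 3.8, 4.15 and 4.8 in controls. The diets did not overlap for Acot1 (difference -0.99, adjusted p = 0.0189 by limma), its signal was dim, and its probes may also bind transcripts of close relatives. Cyp4a1, a fatty acid omega-hydroxylase and classical PPARa target in rat, came close with -0.30 (adjusted p = 0.0507 by limma), at 10.79 ± 0.13 in PSC-fed rats and 11.08 ± 0.12 in controls (SD, n = 6 each).

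Fgf21, a liver hormone that PPARa induces in fasting, had the opposite sign and was also not called, with 7.34, 7.885 and 8.21 in PSC-fed rats and 7.01, 7.34 and 7.55 in controls. Its difference was 0.49 (adjusted p = 0.0515 by limma), and it was called without PSC replicate 4 (adjusted p = 0.0099). Cyp4a1 passed when either control replicate 2 or PSC replicate 2 was dropped, at adjusted p = 0.0265 and 0.0448. With the arrays quantile normalized again, or a variance prior with trend, both passed, and the count in this list was then 4. With a minimum mean log2 signal of 5 both also passed (limma adjusted p = 0.0256 for Cyp4a1 and 0.0305 for Fgf21). Cyp4a1 alone passed after median centring (0.0199) and with array weights (0.0352). Neither passed with all transcript clusters tested or with the replicate number as a block.

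Regulators were called in both directions, 2 higher and 2 lower of 22 measured, with 18 not called. Over all genes 0.716% were called higher and 1.89% lower. An unadjusted limma p under 0.05 was found for 6 of the 22, and for 19.1% of all genes. The lists were chosen with earlier results known, so nothing is read from these shares. Ppara had 9.07, 9.35 and 9.51 in PSC-fed rats and 8.63, 8.945 and 9.09 in controls. The diets overlapped slightly, the lowest PSC array lying under the highest control (difference 0.41, adjusted p = 0.0345 by limma). Rxra, the retinoid X receptor that pairs with PPARa on DNA, was very even in PSC-fed rats, at 9.78, 9.825 and 9.86, against 9.34, 9.47 and 9.69 in controls, without overlap (difference 0.32, adjusted p = 0.0186 by limma).

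Prkaa1, a catalytic subunit of the energy sensor AMPK, was lower together with Ppargc1a in this list. Its log2 signal was 6.6, 7.04 and 7.32 in PSC-fed rats, against 7.37, 7.62 and 7.83 in controls, without overlap (difference -0.63, adjusted p = 0.0133 by limma). Prkaa2, the other catalytic subunit, had 0.05 (adjusted p = 0.774 by limma). Ppara lost its call without control replicates 1, 3, 4, 5 or 6 (adjusted p = 0.0731, 0.0653, 0.0611, 0.0597 and 0.0532) or PSC replicates 2, 5 or 6 (0.0581, 0.0731 and 0.0758), and with all transcript clusters tested (0.0611). Rxra lost it without control replicate 1 (adjusted p = 0.05002), whereas Prkaa1 remained called in all 12 such fits.

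Lists around Pdk4, Vnn1 and Ppargc1a held few further differences. In the pyruvate dehydrogenase complex with its kinases and phosphatases 0 of 11 genes were called. An unadjusted limma p under 0.05 was found for 1, the phosphatase gene Pdp2, with -0.175 (adjusted p = 0.158), against 19.1% of all genes. Dld and Pdk3, a subunit and a kinase of the complex, had -0.085 and -0.10. In coenzyme A synthesis and recycling 3 of 12 genes had an unadjusted limma p under 0.05. Vnn1 was the 1 gene called of the 12, against 2.6% of all genes. Vnn3, its neighbour in the vanin family, had 7.96, 7.975 and 8.25 in PSC-fed rats and 7.06, 7.93 and 8.1 in controls (difference 0.24, adjusted p = 0.36 by limma). Pank3, a pantothenate kinase, had -0.125, and Enpp1, a pyrophosphatase, -0.14.

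Of 4 measured gluconeogenic targets of PGC-1a 0 were called, and 2 had an unadjusted limma p under 0.05, as had 19.1% of all genes. Pck1, which encodes phosphoenolpyruvate carboxykinase, had 10.88, 11.03 and 11.65 in PSC-fed rats and 10.23, 10.565 and 11.15 in controls, with a difference of 0.51 (adjusted p = 0.075 by limma) and the opposite sign to Ppargc1a. It was called without control replicate 6 (0.62, adjusted p = 0.0339). Fbp1 and Tat had 0.15 and -0.025. Both measured genes of ketone body synthesis, Acat1 and Bdh1, had positive differences of 0.195 and 0.15 that were not called, and Acat1 had an unadjusted limma p of 0.0449.

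The genes whose signal ran most like each member across the 12 arrays, after the mean of each diet was taken from each gene, were sought among 18065 genes. Cpt1a ran most like C6, a complement gene (Pearson r = 0.978, Spearman rho = 0.956), Acsl1, the long-chain acyl-CoA synthetase of liver (r = 0.938, rho = 0.831), and Pon1, paraoxonase (r = 0.923, rho = 0.767). Acsl1 is itself in the list of other PPARa targets. Without control replicate 6 and PSC replicate 4, the arrays farthest from the median of Cpt1a, these r were 0.883, 0.756 and 0.586, so much of the likeness to Acsl1 and Pon1 rests on those arrays. The differences of C6, Acsl1 and Pon1 between the diets were 0.22, 0.26 and 0.19, and none was called (adjusted p = 0.301, 0.176 and 0.202 by limma).

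For the other members the most similar gene was G3bp1 for Cpt2 (r = 0.964), Hspd1 for Acadm (r = 0.899), Noc2l for Acadl (r = 0.917), Dnajb5 for Ehhadh (r = 0.895), Zfp772 for Pdk4 (r = 0.88), C1r for Vnn1 (r = 0.913) and Nsd2l1 for Ppargc1a (r = 0.899). None of these was a member of the group or of its pathway lists. Without the 2 arrays farthest from each member's median these r lay between 0.648 (Ehhadh) and 0.937 (Cpt2). Each is the highest of many values over 12 arrays and is a description of these arrays.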

How the data were processed

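Liver RNA of 12 rats, 6 per diet, was measured on 1 array each. The authors deposited log2 signals per transcript cluster. The submitters' processing notes name RMA and the Affymetrix Expression Console as tools. RMA corrects background, quantile normalizes arrays and summarises probes, which compresses small changes of dim genes. Versions, filters and detection calls are unknown here. The values were used as they stand.

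Of 30347 clusters, 18511 have 1 gene symbol in the platform annotation, 575 several and 11261 none listed. Of the single ones 18394 matched RefSeq (GRCr8) by gene number. The brightest cluster stood for each of 291 genes with several, leaving 18166 genes. The diets were compared with limma 3.58.1 in R 4.3.3 (lmFit and eBayes, two-sided, Benjamini-Hochberg over all genes, threshold 0.05). The code was checked on simulated data in which genes varied independently and no array differed as a whole. That check cannot speak to error rates in these arrays. The limma p-values set the diet difference against the spread between the 6 rats of each diet, taken over both diets. They treat the rats as independent, and which of them were cage mates is unknown. Figures used matplotlib 3.10.9.

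Members and lists were chosen with earlier results of these data known. Of the lists, every called gene and the 3 with the smallest p were to be named. Some listed genes are not reported here. Genes named beyond that rule after their values were seen are Abcd3, Fgf21, Cpt1b, Prkaa2, Vnn3 and the marker genes. Lists are described by counts and medians, with no set test.

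Alternatives were quantile normalization again, centring on the median, array weights, a trended variance prior, a minimum mean log2 signal of 5, the mean of a gene's clusters, all clusters, the replicate number as a block, a threshold of 0.1, and leaving out each array. Leaving out PSC replicates 2 and 5 together was added after seeing the data.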

Additional observations from a re-analysis of the deposited data

Results flagged for a closer look

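Of the 16 groups of 6 arrays formed by the 8 genes and the 2 diets, 3 held an array whose gap to its nearest neighbour was large against the range of the group (Dixon's test), where chance flags about 1 group in 20. Pdk4 had 9.03 on PSC replicate 4, with the next PSC array at 9.9, a gap of 0.784 of the range. Acadl had 10.9 on PSC replicate 3, with the next at 11.01, a gap of 0.647 of a narrow range. Cpt1a had 8.41 on control replicate 6, with the next control at 9.26, a gap of 0.63 of the range. Without these arrays the differences between the diets were 0.35 for Pdk4 (limma adjusted p = 0.369), 0.06 for Acadl (adjusted p = 0.588) and 0.62 for Cpt1a (adjusted p = 0.022).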

How the results depend on the processing

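The number of genes called was 473 of 18166, 27.5% of them higher in PSC-fed rats. It was 769 with a minimum mean log2 signal of 5, which tests fewer genes, 254 over all transcript clusters, which tests more, 94 with the replicate number as a block, 1140 at a threshold of 0.1, 225 without PSC replicates 2 and 5 together, and 142 to 735 with 1 array left out. The block uses up degrees of freedom. Deviations of same-numbered arrays from the diet means correlated at -0.151 to 0.111, and whether such arrays shared any handling was not tested. After median centring 666 genes were called and 12.3% of them were higher; with the other alternatives the counts stayed within 1.5 times. Beside its value in the report, the number of the 8 genes called was 1 without PSC replicates 2 and 5, and 1 to 3 with 1 array left out. It was 2 with array weights, all transcript clusters or the replicate block, and 4 after median centring or at a threshold of 0.1. With the replicate block Cpt1a had an adjusted p of 0.0837 and Vnn1 and Ppargc1a remained called (0.0171 and 0.0342); relative to Ehhadh, Cpt2 kept its difference of 0.19 with an adjusted p of 0.0625 (exact sign flips), and the other pairs remained called. Leaving out 1 array kept all 4 pairs called, with differences of 0.867 to 1.107 for Cpt1a, 0.164 to 0.22 for Cpt2, 0.131 to 0.205 for Acadm and 0.206 to 0.29 for Acadl. Calls in the mitochondrial list numbered 0 with array weights, the replicate block or without PSC replicates 2 and 5, 2 at a threshold of 0.1, and 0 to 1 with 1 array left out. In the peroxisomal list they were 0 with the replicate block, 1 without PSC replicates 2 and 5, and 0 to 2 with 1 array left out. Among other PPARa targets they were 4 with quantile normalization again, the variance prior with trend or a threshold of 0.1, and 2 to 3 with 1 array left out. Among regulators they were 2 with the replicate block or without PSC replicates 2 and 5, and 1 to 4 with 1 array left out. Among gluconeogenic targets they were 1 with array weights, the minimum signal, the replicate block or a threshold of 0.1, and 0 to 1 with 1 array left out. The cause of these changes was not tested beyond the number of genes or arrays that each alternative sets. Signal over background is not known without detection calls, which limits what can be said of the dim genes Ppargc1a and Acot1.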
